A study of Mus musculus with 20 samples.

Results

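En1 and En2 are the 2 mouse engrailed genes. Their loci were represented by the intervals of the deposited methylation table that overlap a window of 25 kb on chromosome 1 (En1) or of 20 kb on chromosome 5 (En2), both in mm9 coordinates. The loci were selected on measured values of this table as well as by position: the main En1 interval had been reported for its low level in P0 neurons, and whether other values entered the choice is not recorded. The windows held 4 of the 50782 intervals, 2 for each gene, and 1 of the 4, at En1, held enough reads to be tested. DNA came from hypothalami of inbred male C57BL/6 mice with no transgene or treatment named in the labels, and each sample pooled 2 hypothalami of one age. Nuclei were taken on the day of birth (P0) or on postnatal day 21 (P21) and separated by flow sorting after staining for NeuN, a nuclear marker of neurons, into stained (neuronal) and unstained (non-neuronal) nuclei. This gave 4 groups of 5 libraries described as biological replicates: P0 neurons, P0 non-neurons, P21 neurons and P21 non-neurons. The non-neuronal fraction can hold several cell types, and the purity of the sorts was not checked here, since intervals were not assigned to marker genes.

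Methylation-specific amplification reads DNA methylation at CCCGGG sites. SmaI is blocked by methylation and removes the unmethylated sites, XmaI then opens the methylated ones for adaptor ligation, and PCR amplifies a stretch whose 2 end sites were methylated. More reads in an interval therefore stand for more methylation at its 2 end sites. The scale is relative, so no share of methylated molecules can be read from it. Values are given as CPM, each read count as parts per 1000000 of its TMM-scaled library size. Amplification depends on length, so a difference in CPM between intervals of different length is not read as a difference in methylation. In a sorted pool, a higher share of methylated copies per cell and a higher share of cells that carry the methylation cannot be told apart.

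The engrailed genes encode homeodomain transcription factors. En1 and En2 are known for their part at the boundary of midbrain and hindbrain, where they act downstream of Wnt1 and with Fgf8 and the Pax genes, and in midbrain dopaminergic neurons and the cerebellum. Genes of this developmental class often start in stretches rich in CG dinucleotides, the main target of DNA methylation in mammals. An annotation of mm9 was not used here. Whether the 4 intervals lie in a promoter, exon, intron or UTR was therefore not analysed, and neither were the other genes of the midbrain and hindbrain network.

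The assay sees CG dinucleotides only inside CCCGGG, and the sequence at the start of En1 is shown for its CG dinucleotides and for the assay's site. RefSeq's En1 start window, from 250 bases before to 50 bases after the gene's start, lies on the plus strand at chr1:120602237-120602536 of GRCm38.p6, a build whose coordinates cannot be set beside those of the table. Capitals mark each CG.

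En1 start window: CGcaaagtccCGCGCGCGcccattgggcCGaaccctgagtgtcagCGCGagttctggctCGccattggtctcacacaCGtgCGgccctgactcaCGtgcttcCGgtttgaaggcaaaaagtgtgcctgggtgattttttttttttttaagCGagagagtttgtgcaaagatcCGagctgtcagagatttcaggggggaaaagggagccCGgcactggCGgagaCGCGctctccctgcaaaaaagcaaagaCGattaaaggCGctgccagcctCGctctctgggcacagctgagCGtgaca

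The window held 23 CG dinucleotides, against a median of 7 over the 32851 start windows of 300 bases in the table, and 78.5% of those windows held fewer. It held 0 copies of CCCGGG, a palindrome read alike on both strands, which occurred in 13.5% of all start windows. The letters say only that no such site lies in these 300 bases. A window for En2 was not used here.

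Libraries held 5663740 to 9998110 reads, and replicates of a group correlated at r = 0.964 to 0.983 across tested intervals. On the third principal component, with 5.06% of the variance, P0 neuron replicates 4 and 5 stood apart from replicates 1 to 3, at -18.9 and -15.7 against 30.2 to 44.3. P0 non-neuron replicates 4 and 5 were also the lowest of their group there, at -27.2 and -42.6 against -16.2 to 9.22. The fitted differences of the tested En1 interval that use P0 libraries are therefore also given without replicates 4 and 5 of P0.

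The main En1 interval spans 440 bp and begins 53 bp after the end of the second one, chr1:122500342-122500564 (mm9). It gathered 2181 reads, with reads in each of the 20 libraries. Its level was low in neurons and higher in non-neurons at each age, and it rose with age in both fractions. In P0 neurons the 5 libraries had 1.38, 1.35, 1.93, 0.515 and 1.67 CPM. These came from 3 to 11 reads per library and 42 in all, so folds and places given for P0 neurons rest on few reads. In P0 non-neurons they had 13.5, 6.42, 12.1, 11.6 and 13.1 CPM. P21 neurons had 3.67, 4.14, 5.53, 2.64 and 4.75 CPM. P21 non-neurons had 43, 37.6, 40.2, 50 and 37.2 CPM. Each group stood clear of the other 3, in the order P0 neurons, P21 neurons, P0 non-neurons, P21 non-neurons. This order includes the P0 values known when the loci were proposed. The share of tested intervals whose groups separate so was not counted, here or below. The highest P0 neuron library, at 1.93 CPM, lay below the lowest P21 neuron library, at 2.64 CPM. The highest P21 neuron library, at 5.53 CPM, lay below the lowest P0 non-neuron library, at 6.42 CPM, and this pair of groups, which differ in both age and cell type, was not tested. The plot of normalised read counts per library shows both En1 intervals, with this order in the one of 440 bp.

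**Figure D1:**
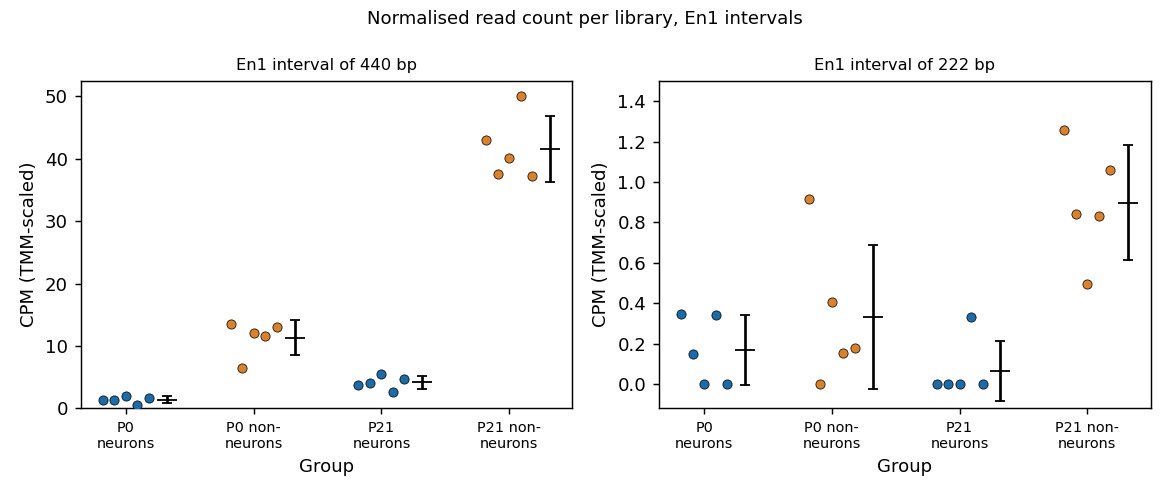
Normalised read count (CPM, TMM-scaled, linear axis) of each library in the En1 intervals of 440 bp (left) and 222 bp (right), by group; points are libraries in order of replicate number, and the bar beside them is the mean ± SD (n = 5). P21 non-neurons lie at 37.2 to 50 CPM in the longer interval and at 0.495 to 1.26 CPM in the shorter one, above every other group's libraries in the former and above all P21 neuron libraries in the latter.

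At birth the interval had 1.37 ± 0.53 CPM in neurons and 11.3 ± 2.85 CPM in non-neurons (SD, n = 5 each). The fitted log2 difference, neurons minus non-neurons, was -3.03 ± 0.25 (SE), an 8.17-fold lower level in neurons. This contrast was known when the loci were proposed, because this interval had already been reported from it, so the difference is given as a description with no test. A more negative difference was found at 9 of the 26679 tested intervals, a place that is not independent of the choice of the interval. Of all tested intervals, 2.86% were called lower in P0 neurons at an edgeR adjusted p under 0.05. Without P0 replicates 4 and 5 the difference was -2.78 ± 0.31 (SE).

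At P21, in libraries that the comparison at birth did not use, neurons had 4.15 ± 1.09 CPM and non-neurons 41.6 ± 5.24 CPM (SD, n = 5 each). The level was 9.96-fold lower in neurons, with an approximate 95% interval of 7.81-fold to 12.7-fold (log2 difference -3.32 ± 0.18, SE; edgeR quasi-likelihood adjusted p = 2.15e-19 over all tested intervals). All 5 neuron libraries lay below all 5 non-neuron libraries, and the share of tested intervals that separate so was not counted. Among tested intervals, 15% were called lower in P21 neurons, and 40 of 26679 had a more negative difference than En1. The median difference over all tested intervals was -0.06, with 5th and 95th percentiles of -0.87 and 1.61.

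**Figure D2:**
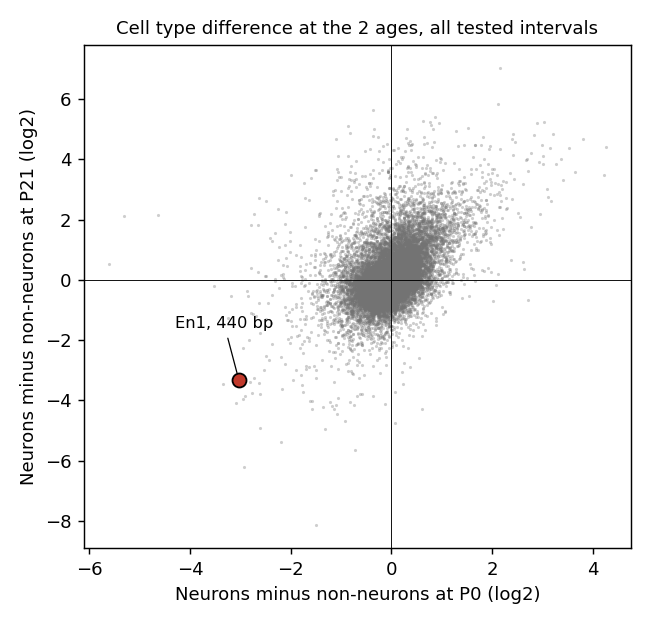
Fitted log2 difference of neurons minus non-neurons at P0 (horizontal) and at P21 (vertical), one grey point per tested interval, with the En1 interval of 440 bp in red. The En1 point lies at -3.03 and -3.32, in the lower left, away from the bulk of intervals around 0. Its place on the P0 axis is not independent of the choice of the interval. The 2 axes share no library.

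Reads rose with age in each fraction. In neurons the interval went from 1.37 ± 0.53 to 4.15 ± 1.09 CPM (SD, n = 5 each), a log2 rise of 1.59 ± 0.27 (SE; edgeR adjusted p = 4.03e-06). Every P21 neuron library was above every P0 neuron library, and the share of tested intervals that separate so was not counted. The rise was 3.00-fold, with an approximate 95% interval of 2.08-fold to 4.34-fold. Rises were called at 31% of tested intervals in neurons, and 1818 of them had a larger one. In non-neurons the level went from 11.3 ± 2.85 to 41.6 ± 5.24 CPM, a log2 rise of 1.87 ± 0.16 (SE; edgeR adjusted p = 2.22e-12). This was a 3.66-fold rise, with an interval of 2.93-fold to 4.58-fold, against 28.5% of tested intervals called as rising, and 513 intervals rose more. Without P0 replicates 4 and 5 the log2 rises were 1.41 ± 0.32 in neurons (SE; edgeR adjusted p = 0.000358) and 1.94 ± 0.19 in non-neurons (SE; edgeR adjusted p = 2.78e-10). The age comparisons use the P0 libraries that were known when the loci were proposed. They are therefore not independent of the choice of the loci. An interval picked for a low level in P0 neurons would tend to rise from it. The rises in both fractions, and their adjusted p, are thus read as descriptions.

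The fitted change of the cell type difference between P0 and P21, the log2 interaction, was -0.29 ± 0.35 (SE). It contains the difference at birth, which was known when the loci were proposed, so it is given as a description with no test. Over all tested intervals 14.1% had an interaction called, 10.9% positive and 3.24% negative. Without P0 replicates 4 and 5 the En1 value was -0.53 ± 0.40 (SE).

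**Figure D3:**
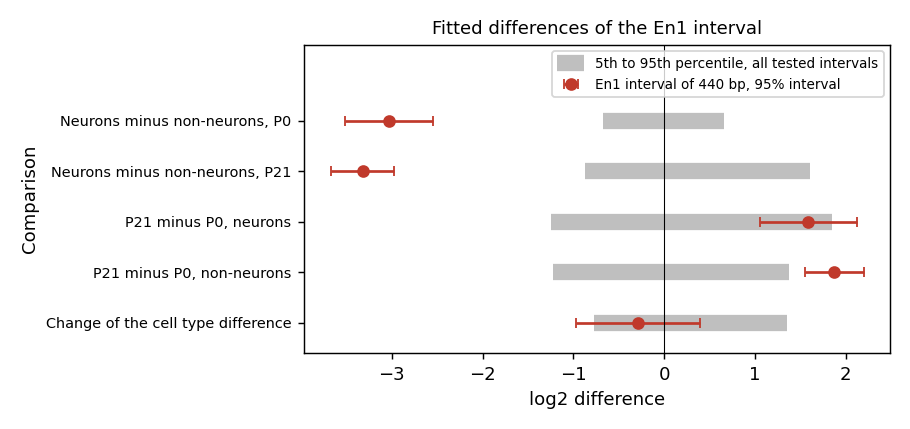
Fitted log2 differences of the En1 interval of 440 bp in 5 comparisons (red points, with approximate 95% intervals) over the 5th to 95th percentile of all tested intervals (grey bars). Both cell type differences lie below the grey range, the rise in neurons lies inside it and the rise in non-neurons above it. Apart from cell type at P21, the comparisons use P0 libraries known when the loci were proposed. The interaction, a description with no test, has an interval of -0.97 to 0.4.

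Relative to other intervals of the same libraries, En1 changed its place as well as its level. Its mean level exceeded 10.5% of tested intervals in P0 neurons and 30.7% in P21 neurons. In non-neurons it exceeded 56.7% at P0 and 78.6% at P21. It stood at 0.166 of the median tested interval in P0 neurons and at 4.5 times the median in P21 non-neurons. These places are among tested intervals of all lengths, so they mix length with methylation. In neurons it thus remained under the median at each age, and in non-neurons it lay above it at each age.

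The second En1 interval spans 222 bp. It had 53 reads in all, in 13 of 20 libraries, and did not reach the read minimum for testing. Read counts in replicates 1 to 5 were 2, 1, 0, 2 and 0 in neurons at P0. The non-neurons had 6, 0, 3, 1 and 1 reads at P0 and 9, 6, 4, 6 and 9 at P21, and neurons at P21 had 0, 0, 0, 3 and 0. At P21 the non-neuron libraries did not overlap the neuron libraries, as in the neighbouring interval, and the share over all intervals was not counted. At P0 the fractions overlapped, and so did P0 and P21 neurons.

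Summed over libraries, P21 non-neurons had 34 reads in the shorter interval (0.893 CPM, exact Poisson 95% interval 0.618 to 1.25) and P21 neurons had 3 (0.0639 CPM, 0.0132 to 0.187). The ratio was 14-fold, with an exact 95% interval of 4.39 to 71.1. These intervals cover counting error only, and reads carry no molecular identifiers. Replicate 4 of P21 neurons held all 3 of their reads. Without it P21 neurons had 0, and the exact lower 95% bound of the ratio was 8.67-fold. Set against 3 reads over the group, the ratio was 11.3-fold. P0 non-neurons had 11 reads, and the ratio of P21 to P0 non-neurons was 2.61 (1.29 to 5.71) by counting error. The libraries of those groups overlapped, and in the fit without the read filter the change was not called (log2 1.36 ± 0.69, SE; edgeR adjusted p = 0.113). P0 non-neuron replicate 1 held 6 of the 11 reads, and without it the ratio was 4.57 (1.78 to 15). Without P0 non-neuron replicate 2, which had 0 reads, the ratio was 2.1 (1.04 to 4.6). For neurons the ratio of P21 to P0 was 0.39 (0.0606 to 2.01), which gives no direction, and the upper bound fell to 0.881 without replicate 4 of P21.

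The shorter interval took 2.11% of the pair's reads in P21 non-neurons (34 of 1612, Clopper-Pearson 95% interval 1.46 to 2.93), 2.93% in P0 non-neurons (11 of 376, 1.47 to 5.17) and 1.51% in P21 neurons (3 of 199, 0.312 to 4.34). In P0 neurons it took 10.6%, from 5 of 47 reads, with a 95% interval of 3.55 to 23.1 that overlaps 2 of the other 3. These intervals also cover counting error only, and the 5 reads came from 3 libraries, so a difference in share was not tested. Low reads were not unusual for its length. Of 2765 intervals of 200 to 244 bp, 53.9% had fewer reads, and 37.1% passed the filter.

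At En2 almost no reads were found in any group. The interval chr5:28492479-28492746, of 267 bp, had 0 reads in all 20 libraries. The 0 among 33689288 reads of P0 neurons allows a level of up to 0.0982 CPM (3 reads over the group). For P0 non-neurons (34154445 reads) the limit was 0.0933 CPM, for P21 neurons (44992490 reads) 0.0639 CPM, and for P21 non-neurons (34652755 reads) 0.0788 CPM. The upper ends of the exact Poisson 95% intervals, the basis used for the adjoining interval, were 0.121, 0.115, 0.0785 and 0.0968 CPM in the same order. No read at all was also the finding at 11.4% of the 1810 intervals of 241 to 293 bp and at 12.3% of all intervals.

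The adjoining En2 interval, chr5:28492746-28493587, shares a site with the first, spans 841 bp and had 12 reads in 6 libraries. P0 neurons had 2 reads, all in replicate 5. P0 non-neurons had 2, all in replicate 4, and P21 neurons had 2, all in replicate 1. P21 non-neurons had 6, from 0, 3, 0, 1 and 2 reads in replicates 1 to 5. Every group overlapped every other. Its pooled levels were 0.0654 CPM in P0 neurons (exact Poisson 95% interval 0.00793 to 0.236), 0.0622 in P0 non-neurons (0.00753 to 0.225), 0.0426 in P21 neurons (0.00516 to 0.154) and 0.158 in P21 non-neurons (0.0578 to 0.343), with overlapping intervals throughout. A difference between groups was not detectable at this depth. Intervals of this length usually had many more reads: of 2302 intervals of 757 to 925 bp, 6.91% had fewer reads than this one, 75.5% passed the filter, and the median was 3895.5 reads over the 20 libraries.

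**Figure D4:**
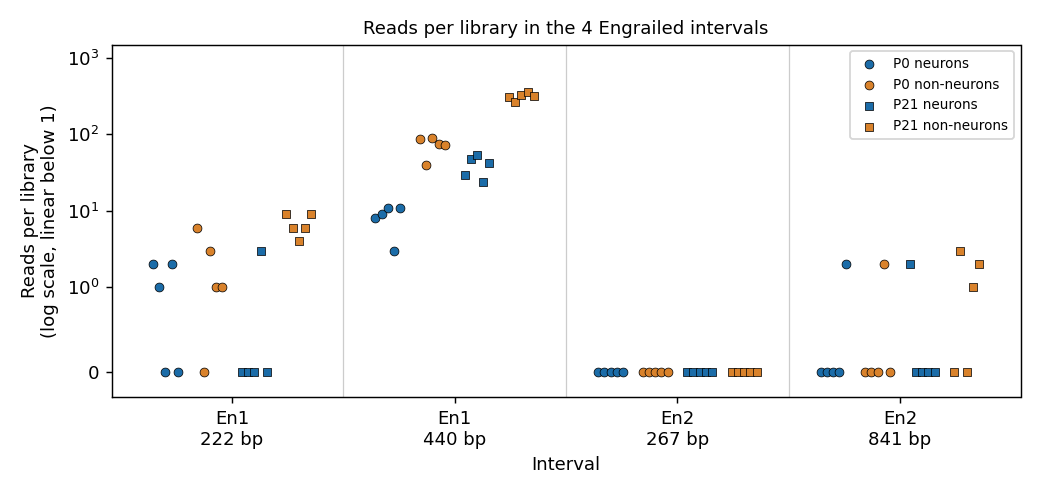
Reads per library (log scale, linear below 1) in each of the 4 engrailed intervals, by group; points are libraries in order of replicate number, circles P0 and squares P21. The En1 interval of 440 bp has reads in all libraries, from 3 to 360, whereas the En2 interval of 267 bp has 0 throughout and the En2 interval of 841 bp has at most 3.

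None of the tested neighbours described here was called lower in P21 neurons, against 15% of all tested intervals. The neighbours are too few to be told apart from that share. Within 100 kb of the En1 window the table held 0 other intervals. The nearest on one side, chr1:122387884-122388670, lay 111.7 kb away with 153 ± 19.9 CPM in neurons at P21 and 125 ± 13.2 CPM in non-neurons (SD, n = 5 each), 0.29 higher in neurons on the log2 scale (edgeR adjusted p = 0.00739). On the other side, chr1:122637946-122638322 lay 136.9 kb away with 86.9 ± 9.17 and 86.6 ± 15 CPM (edgeR adjusted p = 0.973).

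Around the En2 window 8 intervals lay within 100 kb, of which 5 were tested. The closest, chr5:28513544-28515512, 8.5 kb outside, had 3.73 ± 1.11 and 4.69 ± 0.596 CPM in P0 neurons and non-neurons and 5.66 ± 1.09 and 4.62 ± 0.729 CPM at P21 (SD, n = 5 each). It rose in neurons (log2 0.59; edgeR adjusted p = 0.0211), and neither its cell type difference at P21 (adjusted p = 0.294) nor its age change in non-neurons (adjusted p = 0.933) passed the test. Of these 5, the one with a cell type difference called at P21 was chr5:28435518-28436285, 48.7 kb outside, at 108 ± 9.78 CPM in neurons and 48 ± 2.9 CPM in non-neurons (log2 1.16; edgeR adjusted p = 2.3e-15), in the direction opposite to En1.

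The intervals most like the En1 interval of 440 bp over the 20 libraries were found by Pearson's r of log2 CPM among the 26678 other tested intervals. They were chr2:105520789-105521638 (r = 0.965), chr9:69610745-69611517 (r = 0.95) and chr19:16535173-16536529 (r = 0.941), and 19 intervals exceeded 0.9. These correlations describe libraries that fall into 4 groups and share depth and scaling, and they carry no test. The chromosome 2 interval had 1.97 ± 0.633, 12.2 ± 1.87, 7.72 ± 1.55 and 82 ± 9.96 CPM in P0 neurons, P0 non-neurons, P21 neurons and P21 non-neurons (SD, n = 5 each). In the chromosome 9 interval the means were 0.568, 3.8, 0.981 and 9.3 CPM, and in the chromosome 19 interval 22, 36.4, 30.9 and 60.8 CPM. Each of these intervals had En1's order of group means, which their choice by r favours. No En2 interval was tested, so none was compared in this way.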

How the data were processed

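The authors deposited 1 table of read counts for intervals between SmaI/XmaI sites, with a column for each of the 20 libraries. Its whole numbers and unequal column sums show raw counts. Per the submitters' processing notes, reads were handled with cutadapt, FastQC 0.10.1 and Bowtie 0.12.9 on mm9. The assignment of reads to intervals and the handling of multiply mapping reads were not given in the sources used here. Column names give age, a cell type letter (N, or G for the glia of the series title) and the replicate number.

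In R 4.3.3, edgeR 4.0.16 kept 26679 intervals (filterByExpr with a minimum count of 10 and a total of 15, in effect a CPM of 1.42 in at least 5 libraries), scaled libraries by TMM and fitted the 4 group means jointly with its robust quasi-likelihood model. P-values were adjusted by Benjamini-Hochberg over all tested intervals, and an adjusted p under 0.05 was called. The SE is the log2 difference over the square root of F, and approximate 95% intervals take a normal quantile of it. The functions were tested on simulated data. Every interval of the windows is described, and for likeness the 3 intervals with the highest r are named. The windows, lists and comparisons were chosen with earlier results of these data known. Alternatives were RLE, upper-quartile and total scaling, 2 other filters, DESeq2 1.42.0, removal of each library's length trend (lowess, span 0.2), fits of the compared groups alone, a replicate block, and each library left out in turn. The omission of P0 replicates 4 and 5 was chosen after seeing the data. Plots used matplotlib 3.10.9.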

Additional observations from a re-analysis of the deposited data

Results flagged for a closer look

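In the En1 interval of 440 bp, P0 non-neuron replicate 2, at 6.42 CPM, lay far below the other 4 libraries of its group, at 11.6 to 13.5 CPM. Without it the log2 difference between neurons and non-neurons at P0 was -3.18, and the log2 rise with age in non-neurons was 1.73 (edgeR adjusted p = 1.51e-11). Both values are descriptions, since they use the P0 libraries known when the loci were proposed. Single libraries also held all the reads of their group in P21 neurons at chr1:122500342-122500564 (0.33 CPM, from 3 reads) and in 3 groups of the En2 interval chr5:28492746-28493587: P0 neurons (0.303 CPM), P0 non-neurons (0.309 CPM) and P21 neurons (0.253 CPM), from 2 reads each. Of 12 interval and group combinations with reads, 5 had a library whose gap to its nearest neighbour, as a share of the group's range, passed Dixon's 95% critical value for 5 libraries. By the construction of that value, chance gives about 1 in 20 for normally distributed values. A group with all reads in 1 library always passes.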

How the results depend on the processing

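The En1 interval of 440 bp kept its direction in the 5 comparisons, and its call at P21, under every alternative run. Both age rises also kept an adjusted p under 0.05. The alternatives reuse the P0 libraries that were known when the loci were proposed. Stability across them is therefore no support for the rises, which stay descriptions. Leaving out each library in turn gave log2 differences of -3.18 to -2.83 for cell type at P0, -3.44 to -3.19 for cell type at P21, 1.39 to 1.73 for age in neurons, 1.73 to 1.94 for age in non-neurons and -0.48 to -0.14 for the interaction. Other settings gave -3.13 to -2.78, -3.51 to -3.31, 1.41 to 1.82, 1.83 to 2.1 and -0.53 to -0.26. The edgeR or DESeq2 adjusted p was then at most 1.28e-17 for cell type at P21. For the age rises it was at most 0.000358 in neurons and 2.78e-10 in non-neurons, both given as descriptions. Upper-quartile factors moved the median of all intervals at P21 from -0.06 to -0.25, and 33.3% of tested intervals were then called lower and 16% higher in neurons, against 15% and 20.8% with TMM. At P0 they gave 4.83% lower and 5.06% higher, against 2.86% and 6.92%, and interactions of 7.28% negative and 9.34% positive, against 3.24% and 10.9%. Library totals alone moved the age medians to 0.26 in each fraction, with 41% rising and 18.4% falling in neurons (TMM: 31% and 26.3%) and 40.6% and 16.9% in non-neurons (28.5% and 25.8%). Without the filter, over 44545 intervals, 2 engrailed intervals were called at P21 in place of 1, where 8.42% of all intervals were called lower in neurons. The second was the short En1 interval (log2 difference -3.48 ± 0.82, SE; edgeR adjusted p = 0.000381), and the 12-read En2 interval was not called (adjusted p = 0.383). With the replicate block the P21 difference was -3.31 and no call at these loci changed. Whether the replicate numbers pair the samples is not known. Same-number deviations exceeded r = 0.1 in 3 of 5 pairs at P0 and 2 of 5 at P21, with highest values of 0.21 and 0.322. At each age 2 of 5 neuron libraries correlated best with the non-neuron library of their own number. By Spearman's rho, 1 of the 3 most alike intervals stayed among the 3. Depth limits the short En1 interval and the En2 pair.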
